A study of Mus musculus with 10 samples.

Results

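The 10 genes described here encode the postsynaptic signaling cascade of ON bipolar cells, the retinal interneurons that depolarise when light comes on. They were chosen by name: Grm6, Trpm1, Gpr179, Gnao1, Gnb3, Gng13, Rgs7, Rgs11, Pcp2 and Prkca. All 10 were found among the 19999 genes of the deposited count table, and all 10 passed the filter on low counts. The retinas came from Balb/c mice, an albino strain. One group of 5 libraries came from a light-induced damage model and the other group of 5 from controls, and vehicle is part of every library name in either group. The labels give no light dose, no delay between light and sampling, no age and no sex, and name no genetic alteration. Whether each library came from a different mouse is not stated, and p-values therefore reflect library-to-library spread only, which may be technical.

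In darkness, photoreceptors release glutamate onto ON bipolar dendrites. There it binds the metabotropic receptor mGluR6, which activates the G protein Go and closes the cation channel TRPM1. Light lowers glutamate release, RGS proteins speed GTP hydrolysis by Go, the channel opens and the cell depolarises. Loss of mGluR6, TRPM1 or GPR179 is known to cause congenital stationary night blindness, in which the ON response is missing from the electroretinogram.

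Library totals lay between 17900227 and 20337329 counts in light damage and between 14652535 and 20699236 in control. The cascade genes together held 0.165% to 0.244% of each library, and the lowest single count among them was 400, for Gng13. Light damage replicates 1 and 2 stood apart: they had 17174 and 20414 counts of Xist, a noncoding RNA of female cells, against 1 to 9 in the other 8 libraries. Their summed lens marker level was also high, so that 9 lens genes together ranged from 21.4 to 7520 CPM (counts scaled to one common library size by TMM) in light damage and from 3.28 to 31.4 CPM in control. The labelled tissue was checked against bipolar markers: 7 rod bipolar genes together summed to 486 to 517 CPM with light damage and 394 to 476 CPM without. Because whole retina was sequenced, more bipolar cells and more RNA per bipolar cell cannot be told apart.

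In light damage 1 of the 10 cascade genes rose, the G protein subunit Gng13, and 0 fell. Over all 16852 genes tested, 5.32% were called higher and 7.85% lower. The call was made at a Benjamini-Hochberg adjusted p under 0.05 in edgeR's quasi-likelihood test. Without adjustment, 4 of the 10 were higher at a p under 0.05 (Gng13, Pcp2, Gnao1 and Rgs7) and 0 lower. At that unadjusted threshold 2364 of all 16852 genes tested were higher and 2746 lower. DESeq2 also called 1 higher and 0 lower, where it called 8.08% and 9.89% of the 16194 genes to which it gave an adjusted p. The log2 fold changes of the 10 genes ranged from -0.23 for Rgs11 to 0.38 for Gng13, with a median of 0.14, beside a median of 0.00165 over all genes tested. Groups did not overlap for Gng13 alone among the 10, and 4.31% of all genes were higher without overlap and 5.48% lower without overlap. Without light damage replicates 1 and 2, Gng13 was again the 1 gene that rose and 0 fell, against 0.782% and 1.55% of all genes.

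**Figure D1:**
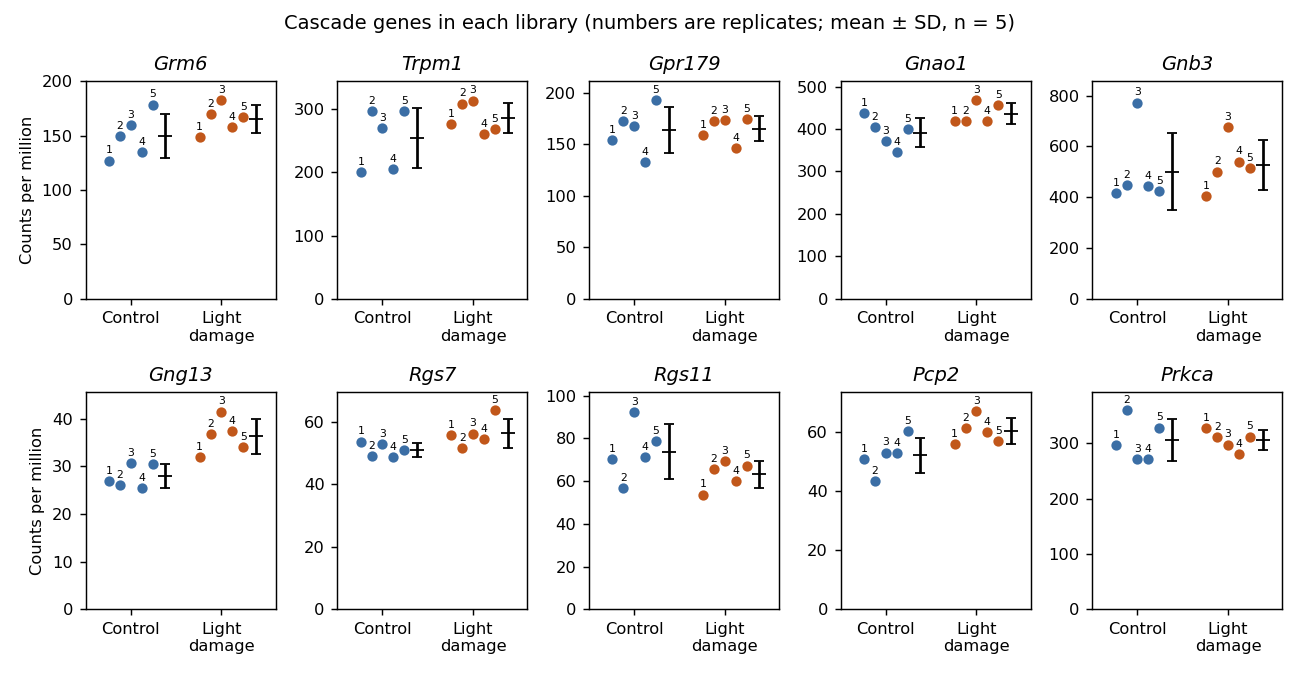
CPM of the 10 cascade genes in each library (y axes start at 0 and differ between panels), with control in blue and light damage in orange. Numbers are replicates and bars are the mean and SD of 5 libraries. For Gng13 the light damage libraries lie between 31.9 and 41.5 CPM, above all controls, which lie between 25.4 and 30.8 CPM.

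Gnb3, the G protein beta subunit of ON bipolar cells and cones, had the highest level per transcript length in both groups. Per kilobase of the longest coding transcript its mean was 271 ± 82.7 CPM in control and 286 ± 53.1 CPM after damage (SD, n = 5 each). Gnao1, the alpha subunit of Go and widespread in neurons, followed with 70.9 ± 6.28 CPM per kilobase in control and 79.0 ± 4.40 in light damage. Trpm1, the channel, was next in control at 44.4 ± 8.33 CPM per kilobase, and in light damage it lay at 50.0 ± 4.17, beside Gng13 at 50.5 ± 5.06. At the low end were Rgs7, with 21.0 ± 0.929 CPM per kilobase in control and 23.2 ± 1.86 in light damage, and the long scaffold gene Gpr179, with 17.8 ± 2.41 and 17.9 ± 1.34. In control the ranges of Gnb3, Gnao1 and Trpm1 were apart from each other, while Trpm1, Gng13, Rgs11, Prkca, Pcp2 and Grm6 overlapped each with the next in that order. Grm6 at 34.6 ± 4.72 CPM per kilobase lay apart from Rgs7, and Rgs7 overlapped Gpr179. Divided by the median length of the coding transcripts, Gnb3 and Gnao1 stayed in the first places and Gpr179 in the last. The order of the genes between them depended on the length used: Pcp2 was the seventh by the longest transcript in control and the fourth by the median one.

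**Figure D2:**
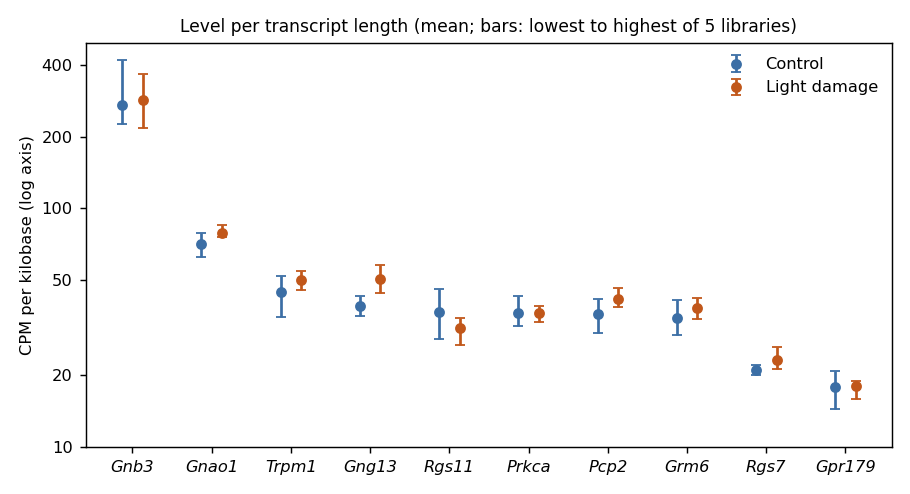
Level of each cascade gene as CPM per kilobase of its longest coding transcript, on a log axis, with means as points and the lowest to the highest of 5 libraries as bars. Gnb3 lies at 271 in control and 286 in light damage, Gnao1 at 70.9 and 79.0, and Gpr179 is lowest at 17.8 and 17.9.

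The receptor gene Grm6 (ENSMUSG00000000617) encodes mGluR6, which in the retina is made by ON bipolar cells. It had 149, 169.9, 183, 158 and 167 CPM in light damage replicates 1 to 5 and 127, 149, 160.0, 135 and 179 CPM in control replicates 1 to 5. The groups overlapped, with controls 1 and 4 lowest and light damage replicate 3 and control 5 highest. The means were 165 ± 12.7 and 150.0 ± 20.4 CPM (SD, n = 5 each), and the log2 fold change was 0.14 (SE 0.08, 95% interval -0.04 to 0.32). The adjusted p from edgeR's quasi-likelihood fit was 0.27, and the interval holds folds from 0.975 to 1.25.

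Trpm1 (ENSMUSG00000030523), the channel that carries the light response, had 277, 309, 313, 261 and 269 CPM in light damage. In control it had 201, 296, 269, 205 and 296 CPM. Controls 1 and 4 lay below every light damage library, and the other 3 controls lay among them. Its log2 fold change was 0.17 (SE 0.11, 95% interval -0.08 to 0.42), with an adjusted p of 0.334 by edgeR.

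Gpr179 (ENSMUSG00000070337) encodes an orphan receptor that holds the RGS complex at the dendritic tips. It had 159, 173, 174, 146 and 175 CPM in light damage and 154, 173, 168, 133 and 193 CPM in control. Both the lowest and the highest value belonged to controls, so the light damage range lay inside that of the controls. The log2 fold change was 0.01 (SE 0.08, 95% interval -0.17 to 0.19), with an adjusted p of 0.953 by edgeR.

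Grm6, Trpm1 and Gpr179 were low in the same control libraries. Their mean log2 CPM, centred over the 10 libraries, was -0.27 in control 1 and -0.30 in control 4, against 0.05, 0.03 and 0.19 in controls 2, 3 and 5. In light damage it lay between -0.06 in replicate 4 and 0.18 in replicate 3. Markers of rod photoreceptors, the cells presynaptic to rod bipolar cells, were highest in those controls: the mean of 14 rod genes, on the same scale, was 0.19 in control 1 and 0.29 in control 4. It was lowest in control 3, at -0.28, and in light damage replicate 3, at -0.27. The part of rod RNA in the level of the 3 genes was not tested.

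**Figure D3:**
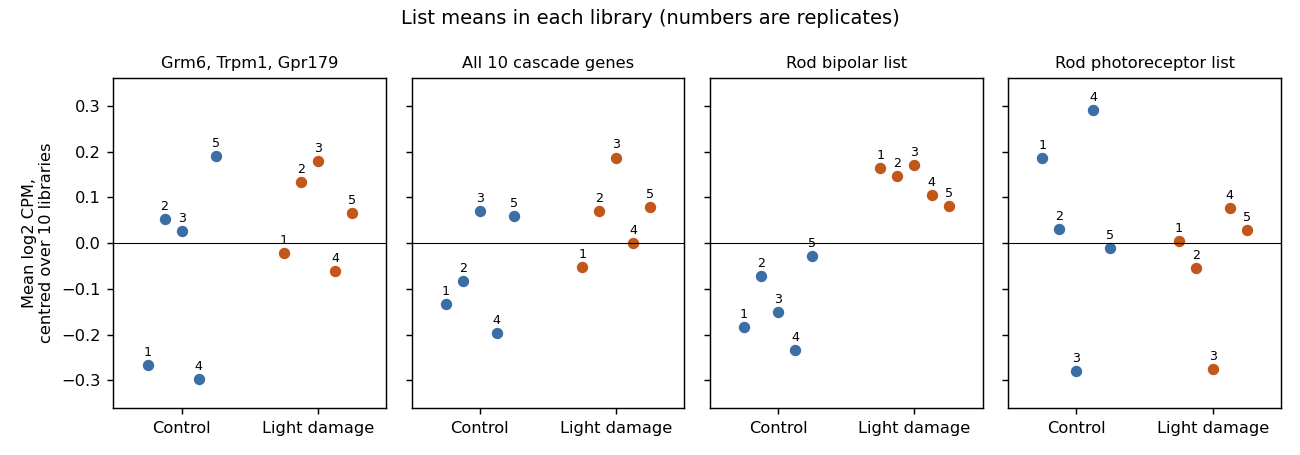
Mean log2 CPM of 4 gene sets in each library, centred over the 10 libraries, with replicate numbers beside the points. The 3 core genes reach down to -0.27 and -0.30 in controls 1 and 4, where the rod photoreceptor list is highest at 0.19 and 0.29, and the rod bipolar list separates the groups without overlap. Lists not drawn here also separated the groups, among them those of OFF bipolar, amacrine and Müller glial markers.

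Upstream sequence is shown for these 3 genes, which were low in the same libraries, and for Gng13, the gene that rose. Each line holds the 250 bases before the first start site listed by RefSeq on GRCm38.p6, 5′ to 3′ on the strand of the gene, and capitals mark a match to TAATCC or its reverse complement GGATTA, the homeobox core recognised by Otx2 and Crx.
Grm6 (chr11:50850435-50850684, plus strand): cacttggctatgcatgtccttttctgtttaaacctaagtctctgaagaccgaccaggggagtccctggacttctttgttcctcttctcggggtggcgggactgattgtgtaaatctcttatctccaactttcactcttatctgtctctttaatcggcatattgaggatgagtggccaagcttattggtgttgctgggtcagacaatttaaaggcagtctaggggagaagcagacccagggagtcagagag
Trpm1 (chr7:64153585-64153834, plus strand): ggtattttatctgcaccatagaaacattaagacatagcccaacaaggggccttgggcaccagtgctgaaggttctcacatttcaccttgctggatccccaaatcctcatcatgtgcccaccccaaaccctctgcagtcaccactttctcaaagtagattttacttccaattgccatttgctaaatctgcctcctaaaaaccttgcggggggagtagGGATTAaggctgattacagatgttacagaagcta
Gpr179 (chr11:97352357-97352606, minus strand): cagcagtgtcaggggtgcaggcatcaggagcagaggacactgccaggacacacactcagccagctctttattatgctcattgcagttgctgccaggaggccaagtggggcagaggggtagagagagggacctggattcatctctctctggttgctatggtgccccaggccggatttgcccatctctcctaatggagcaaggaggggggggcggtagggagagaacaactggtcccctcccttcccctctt
Gng13 (chr17:25716922-25717171, plus strand): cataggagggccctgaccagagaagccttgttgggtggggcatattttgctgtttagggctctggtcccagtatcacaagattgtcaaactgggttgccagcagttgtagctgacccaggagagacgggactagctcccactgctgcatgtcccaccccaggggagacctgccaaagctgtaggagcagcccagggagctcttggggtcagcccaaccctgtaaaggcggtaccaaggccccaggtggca
Entries were found for 8 of the 10 genes, with 13 start sites in all. The match in Trpm1, 34 bases before the start counted from its first base, was the single one in these 13 windows. Of all 32851 windows of the same length in the table, 6.25% held at least 1 match. The palindrome TAATTA, a core bound by Lhx homeobox proteins, was found in 1 of the 13 windows, before the third listed start of Pcp2, and in 4.84% of all windows. Both strands were searched. TAATCC and TAATTA share their first letters and can overlap, and none of the 13 windows held both.

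Gng13 (ENSMUSG00000025739) encodes the gamma subunit that pairs with Gnb3 in ON bipolar cells and also serves taste and olfactory cells. It had 31.9, 36.7, 41.5, 37.4 and 34.0 CPM in light damage replicates 1 to 5, and 27.0, 26.0, 30.8, 25.4 and 30.4 CPM in controls 1 to 5. Every light damage library was above every control, the closest pair being light damage replicate 1 and control 3. The means were 36.3 ± 3.64 and 27.9 ± 2.51 CPM (SD, n = 5 each), and the log2 fold change was 0.38 (SE 0.08, 95% interval 0.21 to 0.55) or 1.30-fold. The adjusted p was 0.00818 by edgeR's quasi-likelihood fit, and it stayed between 0.00868 and 0.0281 when any single library was left out. Without light damage replicates 1 and 2 the log2 fold change was 0.43 and the adjusted p 0.0318 by edgeR. Tested with glmTreat of edgeR against a log2 change of 0.2 in place of 0, Gng13 was not called (adjusted p = 0.143).

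Part of the Gng13 transcript lies opposite another gene. In the GENCODE M21 annotation 399 bases of its exons, whose longest coding transcript has 719 bases, overlap exons of Chtf18 on the other strand. The labels do not say whether strand was kept in counting, so reads from this stretch may not be told apart. Chtf18, a subunit of a clamp loader of DNA replication, had a negative fold change, from a control mean of 24.8 ± 6.01 CPM to 18.0 ± 2.33 CPM after damage (SD, n = 5 each). The test of Chtf18 gave a log2 fold change of -0.46 (SE 0.15) and an adjusted p of 0.0593 by edgeR, while DESeq2 called it lower (adjusted p = 0.0162).

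The other G protein subunits did not pass the test. Gnb3 (ENSMUSG00000023439) had 403, 501, 676, 540.3 and 516 CPM in light damage and 417, 447, 773, 443 and 424 CPM in control. Control 3 stood far above the other controls, and light damage replicate 3 was highest in its group; these are the libraries with the lowest rod list. The log2 fold change was 0.07 (SE 0.20, 95% interval -0.39 to 0.53), with an adjusted p of 0.844 by edgeR, and it was 0.28 without control 3 (adjusted p = 0.123 by edgeR). Gnao1 (ENSMUSG00000031748) had 419, 419.6, 469, 418 and 456 CPM in light damage and 437, 404, 371, 346 and 399.7 CPM in control. Control 1 alone lay inside the light damage range. The log2 fold change of Gnao1 was 0.16 (SE 0.07, 95% interval 0.01 to 0.30), with an adjusted p of 0.135 by edgeR. It passed without control 1 (log2 fold change 0.20, adjusted p = 0.0456 by edgeR), the control inside the light damage range. That was 1 of 10 fits with a single library left out, and the adjusted p reached 0.27 by edgeR without light damage replicate 3.

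Rgs7 and Rgs11 encode the RGS proteins that together speed the shutoff of Go in ON bipolar cells. Rgs7 (ENSMUSG00000026527), which is also found in other retinal neurons, had 55.8, 51.5, 56.2, 54.4 and 63.7 CPM in light damage. In control it had 53.7, 49.0, 52.9, 48.6 and 51.1 CPM, and the groups overlapped. Its log2 fold change was 0.14 (SE 0.06, 95% interval 0.01 to 0.27), with an adjusted p of 0.143 by edgeR.

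Rgs11 (ENSMUSG00000024186) was the 1 cascade gene with a negative fold change. It had 53.6, 65.5, 69.4, 60.1 and 67.2 CPM in light damage and 70.1, 56.8, 92.3, 71.2 and 78.7 CPM in control. All controls but control 2 lay above every light damage library. The log2 fold change was -0.23 (SE 0.11, 95% interval -0.47 to 0.02), with an adjusted p of 0.196 by edgeR. Without control 2, the control inside the light damage range, it was called lower (log2 fold change -0.31, adjusted p = 0.046 by edgeR). That was 1 of 10 fits with a single library left out, and the adjusted p reached 0.368 by edgeR without control 3.

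Pcp2 (ENSMUSG00000004630) encodes a GoLoco protein that binds the alpha subunit of Go, known from cerebellar Purkinje cells and ON bipolar cells. It had 55.9, 61.4, 67.1, 60.1 and 57.0 CPM in light damage and 51.0, 43.3, 53.1, 53.0 and 60.3 CPM in control. Control 5 alone lay inside the light damage range. For Pcp2 the log2 fold change was 0.21 (SE 0.08, 95% interval 0.05 to 0.37), with an adjusted p of 0.0808 by edgeR. It passed without that control (log2 fold change 0.27, adjusted p = 0.0383 by edgeR). This call came in 1 of 10 fits with a single library left out, and the adjusted p reached 0.198 by edgeR without light damage replicate 3. Exons of Pcp2 overlap Pet100, a mitochondrial assembly factor on the other strand, by 941 bases, and Pet100 stood at 4.27 ± 0.472 CPM after damage against 4.21 ± 0.581 CPM for controls (SD, n = 5 each).

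Prkca (ENSMUSG00000050965) encodes protein kinase C alpha, the usual marker of rod bipolar cells, which shapes the rod bipolar response. It had 328, 311, 298, 280.2 and 313 CPM in light damage and 297, 359.8, 272, 272 and 329 CPM in control. The light damage range lay inside that of the controls. The log2 fold change was 0.000927 (SE 0.08, 95% interval -0.16 to 0.17), with an adjusted p of 0.996 by edgeR. The interval reaches from 0.893-fold to 1.12-fold.

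Unequal change between members was tested for 6 pairs chosen after their values had been seen, by an exact two-sided permutation test of the log2 CPM difference over the libraries. Gng13 minus Grm6 was -2.19 ± 0.08 in light damage and -2.42 ± 0.13 in control (SD, n = 5 each; exact p = 0.0159, adjusted over the 6 pairs 0.0952). Rgs11 minus Rgs7 was 0.16 ± 0.16 in light damage and 0.51 ± 0.23 in control (SD, n = 5 each; exact p = 0.0317, adjusted 0.0952). None of the 6 pairs passed after adjustment, so a rise of Gng13 beyond that of Grm6, Gnb3 or Gnao1 was not shown. Because the pairs were chosen after their values had been seen, these p-values cannot decide the question. Gng13 minus the mean of the other 9 members lay between -2.35 and -2.11 in light damage. In control it lay between -2.59 and -2.48, without overlap. That difference was not tested, and Gng13 was singled out as the gene called. With 5 libraries a group the smallest p this test can give is 0.00794.

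**Figure D4:**
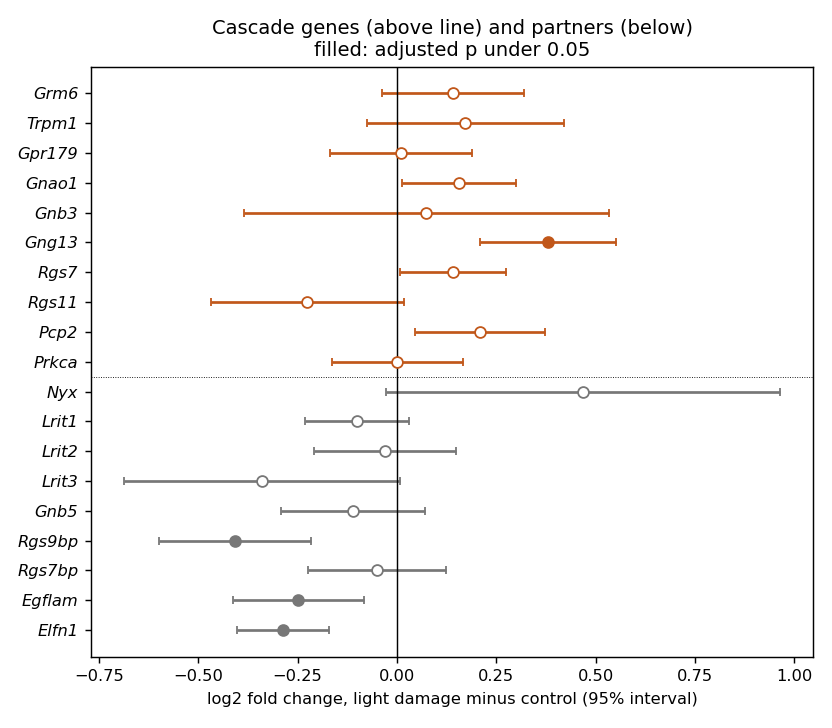
Log2 fold change of light damage against control with its 95% interval for the 10 cascade genes in orange and 9 partner genes in grey, filled where the adjusted p was under 0.05. Gng13 is filled at 0.38, and Rgs9bp, Elfn1 and Egflam are filled at -0.41, -0.29 and -0.25.

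Among 9 partners of the cascade, 3 fell and 0 rose, and 8 had negative fold changes, with a median log2 fold change of -0.11. Over all 16852 genes tested, 7.85% were called lower and 5.32% higher, and 8368 had negative fold changes. Rod photoreceptor markers also had mostly negative values: 11 of 14, with a median of -0.13 and summed levels of 66010 to 91998 CPM in light damage and 70828 to 114391 CPM in control. By edgeR 1 of these 14 rose, Sag, and 0 fell, and DESeq2 called 1 higher and 1 lower. At an unadjusted p under 0.05 by edgeR, 3 of the 14 were lower, beside 2746 of all 16852 genes tested. The part of rod RNA in the partner values was not tested. Rgs9bp, the membrane anchor of RGS9 in photoreceptors and of RGS11 in ON bipolar cells, went from a control mean of 976 ± 117 CPM down to 735 ± 76.4 CPM (SD, n = 5 each). That is a log2 fold change of -0.41 (SE 0.09), and edgeR gave an adjusted p of 0.00959. Elfn1, a rod adhesion protein that binds mGluR6 across the cleft, went from 157 ± 8.84 down to 128 ± 4.98 CPM (SD, n = 5 each), with a log2 fold change of -0.29 and an edgeR adjusted p of 0.00499. Egflam encodes pikachurin, a matrix protein secreted by photoreceptors, and had a log2 fold change of -0.25 (edgeR, adjusted p = 0.0448). Leaving out single libraries ended the Egflam call in 8 of 10 fits, with an adjusted p up to 0.115 without control 4.

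The other 6 partners did not pass. Lrit3, an adhesion protein needed to place TRPM1, had a log2 fold change of -0.34 (SE 0.16, 95% interval -0.69 to 0.00845, adjusted p = 0.174 by edgeR). Nyx and Gnb5 lie outside the naming rule and were chosen after their values were seen. Nyx, whose product nyctalopin has the same role, stood at 20.9 ± 3.77 CPM after damage against 15.1 ± 4.96 CPM for controls (SD, n = 5 each). Gnb5, the obligate partner of RGS7 and RGS11, stood at 742 ± 69.1 against 801 ± 92.9 CPM (SD, n = 5 each). Their log2 fold changes were 0.47 and -0.11, with adjusted p of 0.186 and 0.406 by edgeR. Without light damage replicates 1 and 2, 0 of the 9 partners were called in either direction, and the median was -0.13. Over all genes 0.782% were called higher and 1.55% lower in that fit.

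Other markers of rod and OFF bipolar cells were called more often than the cascade genes, a contrast given as counts without a test. Of ON cone bipolar markers 1 of 5 was called. The cascade genes and the lists were chosen with earlier results of these data known. The contrast therefore describes these lists and is no evidence of a difference. Of 7 markers of rod bipolar cells outside the cascade 6 rose and 0 fell, with a median log2 fold change of 0.27. Over all genes tested 5.32% were called higher and 7.85% lower. The contrast depends on where genes were placed: Prkca, the usual marker of rod bipolar cells, counts here as a cascade gene. It was not called (log2 fold change 0.000927). Tpbg, a membrane glycoprotein phosphorylated in a protein kinase C alpha dependent way, rose from a control mean of 17.9 ± 0.790 CPM to 24.3 ± 3.44 CPM (SD, n = 5 each). The log2 fold change of Tpbg was 0.44 (SE 0.09), and edgeR gave an adjusted p of 0.00771. Vstm2b, Bhlhe23, a transcription factor of rod bipolar cells, and Sebox rose by log2 fold changes of 0.28, 0.33 and 0.24. Sebox no longer passed when light damage replicate 1 was left out (edgeR, adjusted p = 0.0537). The mean of the 7 markers, as centred log2 CPM, lay between 0.08 and 0.17 in light damage and between -0.23 and -0.03 in control, without overlap. Such separation was not particular to this list. The means of the OFF bipolar, amacrine, Müller glial and G protein alpha lists also separated, and that of the ON cone bipolar list overlapped. The mean of the 10 cascade genes lay between -0.05 and 0.19 in light damage and between -0.20 and 0.07 in control, with overlap. Within each library, the cascade mean minus the rod bipolar mean also overlapped between groups. It lay between -0.22 and 0.02 in light damage and between -0.01 and 0.22 in control. Whether the sets changed differently was not tested.

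Of 12 markers of OFF bipolar cells, which use ionotropic glutamate receptors in place of mGluR6, 7 rose and 0 fell, with a median of 0.27. Vsx1, a homeobox gene, rose by 0.47 on the log2 scale (SE 0.08), with an edgeR adjusted p of 0.00317, and Nxph1, a neurexin ligand, by 0.44. Prkar2b and Irx6 rose by 0.33 and 0.34, and leaving out single libraries ended the first call once, without light damage replicate 2 (edgeR, adjusted p = 0.0532), and the second in 3 of 10 fits, with adjusted p up to 0.0729 without light damage replicate 3. Of 5 markers of ON cone bipolar cells 1 rose, the neuropeptide gene Cck with a log2 fold change of 0.43 (adjusted p = 0.00518 by edgeR). Kcng4 and Slitrk5 had values of 0.31 and 0.25, with adjusted p of 0.103 and 0.16, and Cpne9 -0.03, by edgeR. Kcng4 passed without control 3 (adjusted p = 0.0211 by edgeR) and Slitrk5 without control 5 (adjusted p = 0.0455 by edgeR), in each case the highest control. Each passed in 1 of 10 fits with a single library left out, where the adjusted p reached 0.219 and 0.291 by edgeR.

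Fewer of these markers passed without light damage replicates 1 and 2, which had high Xist, and so did fewer of all genes. Over all genes tested 0.782% were called higher in that fit, against 5.32% with all 10 libraries. That fit also has fewer light damage libraries. With light damage replicates 1 to 5 left out singly, 440, 481, 399, 655 and 986 genes were called higher by edgeR, in that order. The part of group size in the lost calls was not tested. Without light damage replicates 1 and 2, 1 of 7 rod bipolar, 2 of 12 OFF bipolar and 1 of 5 ON cone bipolar markers rose and 0 fell. The list medians were 0.26, 0.26 and 0.22 in that fit, and that of the cascade genes was 0.18. With all 10 libraries they were 0.27, 0.27 and 0.25, and 0.14 for the cascade genes. Some markers of other retinal cells also rose. Of 11 Müller glial markers 4 rose, and their summed level ranged from 4809 to 6809 CPM in light damage and from 3525 to 5238 CPM in control. The centred mean of the Müller list was 0.27, 0.30, 0.42, -0.02 and -0.03 in light damage replicates 1 to 5. In control it lay between -0.31 and -0.09, below every light damage library. That of the rod bipolar list was 0.16, 0.15, 0.17, 0.10 and 0.08 in light damage replicates 1 to 5. Of 10 amacrine markers 4 rose, with a summed level of 1727 to 1925 CPM in light damage and 1421 to 1730 CPM in control. Of 6 horizontal cell markers 2 rose, with sums of 498 to 549.9 CPM in light damage and 437 to 491 CPM in control. All 8 microglial markers had positive values, with a median of 0.63, and 1 rose, Csf1r. At an unadjusted p under 0.05 by edgeR, 5 of the 8 were higher, beside 2364 of all 16852 genes tested. Their sums ranged from 60.9 to 129.7 CPM in light damage and from 44.1 to 64.6 CPM in control. The part of these lists in the cascade and bipolar values was not tested.

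**Figure D5:**
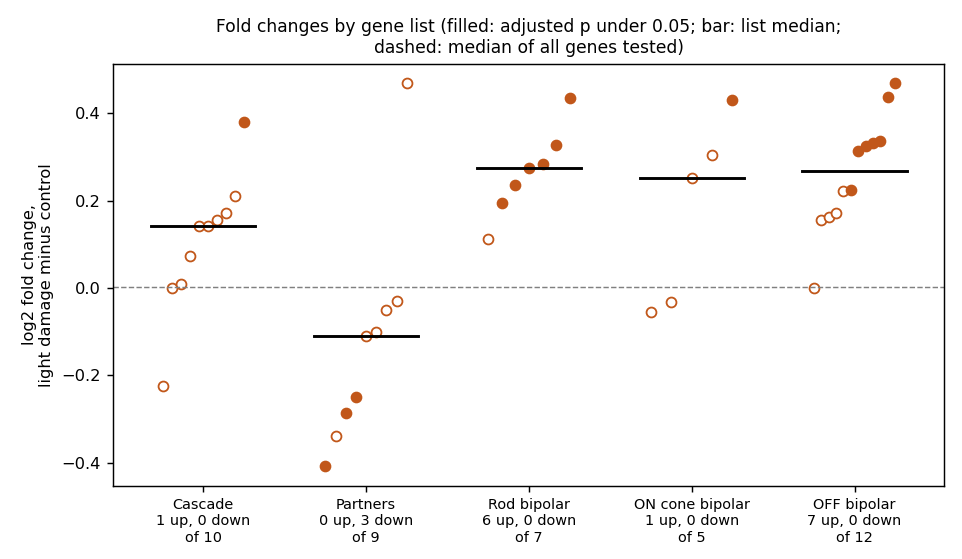
Log2 fold change of each gene in 5 lists, filled where the adjusted p was under 0.05, with the list median as a bar and the median of all genes tested as a dashed line. The cascade has 1 of 10 genes filled and a median of 0.14, and the rod bipolar list 6 of 7 filled and a median of 0.27. The lists were chosen with earlier results of these data known.

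Close relatives of the cascade genes were examined in 8 families. Together 48 genes were tested, 4 rose and 3 fell, with a median log2 fold change of 0.08, and these counts lie near the shares of all genes tested, 5.32% higher and 7.85% lower. Among alpha subunits Gnai2 rose by 0.31 and Gnas by 0.58, while Gnaz, an inhibitory subunit of neurons, fell by 0.27 on the log2 scale. Calls were repeated with each library left out. The Gnas call ended in 8 of 10 such fits (edgeR, adjusted p up to 0.094 without light damage replicate 3). Gnb2, a beta subunit, rose by 0.25 and Prkcb, a conventional protein kinase C, by 0.21, and the channel gene Trpm7 and the GoLoco gene Gpsm1 fell by 0.21 and 0.22 on the log2 scale. Leaving out 1 library ended these calls in 2, 7, 6 and 5 of 10 fits respectively, with adjusted p up to 0.0537, 0.0979, 0.0775 and 0.0716 by edgeR. All 10 other gamma subunits tested had positive log2 fold changes, between 0.06 and 0.46 with a median of 0.17. By edgeR 0 of these 10 passed, and DESeq2 called 1. At an unadjusted p under 0.05 by edgeR, 2 of the 10 were higher, beside 2364 of all 16852 genes tested. Of 7 other metabotropic glutamate receptors 0 passed in edgeR or DESeq2, and 1 was higher at an unadjusted p under 0.05.

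The genes whose library-to-library pattern was most like that of Grm6, Trpm1, Gpr179 and Pcp2 were taken by the mean Pearson correlation of log2 CPM over the 10 libraries after subtracting group means. They were Ptpn13, Atg9a, Cacna1b, Tll1 and Kif26a, with mean r between 0.777 and 0.784. Without subtracting group means they were Ptpn13, Tll1, Ttyh3, Shisal1 and Tro, with mean r between 0.772 and 0.806. These 10 points share library depth and tissue makeup, and the values are a description only.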

How the data were processed

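Whole-number counts per gene were deposited by the authors, 1 column per library. GRCm39, DESeq2 1.4.5, RSEM 1.3.1 and Bowtie2 appear in the submitters' processing notes, with no role for each. Not given in the sources used here are whether strand was used and whether the counts are rounded RSEM estimates. Symbols came from an Ensembl identifier table (19892 of 19999 matched), lengths and overlaps from GENCODE M21 (GRCm38), and upstream sequence from RefSeq.

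Groups and replicate numbers came from the titles. Counts were filtered with filterByExpr, scaled by TMM and tested in edgeR 4.0.16 (R 4.3.3) with robust quasi-likelihood fits on group, and p-values were adjusted by Benjamini-Hochberg over 16852 genes. CPM carry the TMM scaling, with a prior count of 2 before log2. Intervals are 95% and derive from the F statistic. Genes named were the 10 members, up to 4 genes of lowest p in each bipolar or partner list, called genes of the 8 families and genes overlapping members, beside the 5 most alike genes; Sag and Csf1r were chosen after their values were seen. The members and lists were chosen with earlier results of these data known. Alternatives were DESeq2 1.42.0, limma 3.58.1 (voom), other scalings and filters, a replicate block, glmTreat and left-out libraries. No 2 libraries held identical values, and the lowest chi-square per degree of freedom over 45 pairs was 5.77. On simulated counts for these 16852 genes, light damage against control, the fit recovered 70.1% at 1.5-fold, 88.1% at 2-fold and 98.5% at 4-fold among seeded genes. There were 11 false calls. No change under 1.5-fold was seeded, and the largest fold among the cascade genes was 1.30. Recovery at the size of their changes was therefore not measured. One further bipolar marker list is not reported here.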

Additional observations from a re-analysis of the deposited data

Results flagged for a closer look

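Dixon's ratio was computed for 41 genes in each group of 5, 82 groups in all, of which chance would mark about 1 in 20, and 3 were marked. Gnb3 in control 3 had 772.8 CPM, against 417 to 447 CPM in the other controls. Rgs9bp in light damage replicate 3 had 604 CPM, against 746 to 792 CPM in the others of its group. Cpne9 in control 2 had 14.8 CPM, against 19.1 to 19.9 CPM in the other controls. Control 3 and light damage replicate 3 also had the lowest means of the 14 rod genes, at -0.28 and -0.27, and the part of rod RNA in these values was not tested.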

How the results depend on the processing

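The count of cascade genes called higher was 1 and the count called lower 0 under DESeq2, limma-voom, 3 other scalings, 2 other filters, a fit without robust estimation and the fit without light damage replicates 1 and 2. Under glmTreat 0 were higher. With single libraries left out the counts ranged from 1 to 2 higher and from 0 to 1 lower. With the replicate number as a block 2 were higher, Gng13 and Pcp2 (adjusted p = 0.0459 by edgeR). Whether same-numbered libraries were paired cannot be decided from these values. Deviations from the group means correlated between 0.0522 and 0.316 for same-numbered libraries, over 0.1 for 1 of 5 numbers. Of the 5 light damage libraries, 2 correlated best with the control of their own number. The block raised the calls over all genes from 896 to 1431 higher and from 1323 to 1854 lower. With library totals alone these were 1147 and 912, and the median over all genes was 0.0287. Without light damage replicates 1 and 2 they were 135 and 268. With glmTreat they were 30 and 155.

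Values near 0 changed sign. Prkca was -0.0015 with upper quartile scaling, -0.0063 with at least 1 CPM in every library and -0.0403 without light damage replicates 1 and 2, where Cpne9 was 0.0349 and Pet100 -0.0499. With 1 library left out Prkca ranged from -0.0395 to 0.0662, Gpr179 from -0.0508 to 0.0748, Gnb3 from -0.0304 to 0.2841, Cpne9 from -0.1036 to 0.0053, Pet100 from -0.0227 to 0.0968 and Gm12660, which overlaps Grm6, from -0.0788 to 0.2473. The cause of these changes was not tested. Over the 41 genes examined and all alternatives, 739 values kept direction and side of the threshold, 85 lost a call, 13 gained one and 24 changed sign.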
